A study of Mus musculus with 12 samples.

Results

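Eosinophils sorted from gonadal white fat were set against eosinophils sorted from subcutaneous white fat, with 4 libraries a depot. These are 8 of the 12 libraries of the series, and the other 4 came from blood eosinophils. The libraries were chosen by their labelled tissue alone, and every gene with enough reads entered the comparison. All mice were untreated wild-type FVB/NJ males, fed chow and harvested at 20 weeks of age. The gonadal libraries came from mice 2846, 2807, 2683 and 2668, the subcutaneous libraries from mice 2846, 2807, 2771 and 2668, and the blood libraries from mice 2807, 2771, 2683 and 2668. Fat was digested with 1 mg/mL collagenase type II for 45 min at 37 C, a step the labels describe for fat only. The gate was live cells positive for CD45, CD11b and Siglec-F. F4/80 was stained but is not part of the stated gate. Values below are reads scaled to a common library size (CPM, read counts as a rate of the library total) after TMM scaling, and fold changes are gonadal minus subcutaneous on the log2 scale from edgeR's quasi-likelihood fit of all 12 libraries.

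Eosinophils are granulocytes that leave the blood for tissues, where interleukin 5 and related cytokines keep them alive. In white fat they lie in the stroma beside macrophages, lymphocytes and fibroblastic progenitors, and they are known as a source of type 2 cytokines. Gonadal fat is a visceral depot within the abdomen, and the subcutaneous depot lies under the skin. The differences between the depots are therefore given in order: eosinophil genes, genes of other cells, then stress and metabolic genes.

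The libraries held 12477671 to 23734940 estimated reads, apart from the subcutaneous library of mouse 2846 with 4379954. Mitochondrial ribosomal RNA took 28.1% of the reads of that library, against 4.66% to 8.79% in the other 11. In a principal component analysis of the 8 fat libraries the first component (39.0% of the variance) placed that library at -116.6 and the others at -7.8 to 46.4. The second component (20.8%) had the gonadal libraries of mice 2846, 2807, 2683 and 2668 at 29.58, 5.745, 73.46 and -16.43. It had the subcutaneous ones of mice 2846, 2807, 2771 and 2668 at -27.05, -31.45, 3.514 and -37.38. In each mouse that gave both depots the gonadal library was higher on it, but neither component fully separated the depots. The subcutaneous library of mouse 2846 and the gonadal library of mouse 2683 stayed in the comparison. Values without them are given where they move a result.

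The gonadal and subcutaneous libraries differed in 1 gene by the adjusted p, and several other fits did not call it. Of 15367 genes tested, none passed a threshold of 0.05 as higher in gonadal fat (0%) and 1, Lef1, passed as lower (0.00651%). At an unadjusted p under 0.05 there were 1234 genes (8.03%), with 611 higher and 623 lower. DESeq2 called 42 genes higher (0.273%) and 110 lower (0.716%). In 298 genes all 4 gonadal libraries lay above all 4 subcutaneous ones (1.94%), and in 259 genes they all lay below (1.69%). That balance turned with the scaling, to 267 above and 301 below with DESeq2 size factors and to 255 above and 291 below with upper quartile scaling. The same fit called 2372 genes higher (15.4%) and 1780 lower (11.6%) in gonadal fat than in blood. It called 2366 higher (15.4%) and 1755 lower (11.4%) in subcutaneous fat than in blood. Both of these comparisons share the blood libraries. Among the 8321 genes of at least 10 CPM in a depot, the median standard error (SE) of the log2 fold change was 0.24.

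Fitted depot differences and their SE were both larger among genes that blood eosinophils held at low levels, and the share of genes with groups apart did not rise steadily with them. In the 7331 genes of at least 10 CPM in blood, 35 differed by more than 4-fold between the depots (0.477%), and 0 were called by edgeR. In the 5382 genes of 1 to 10 CPM in blood, 293 differed by more than 4-fold (5.44%), and 1 was called. In the 2654 genes under 1 CPM in blood, 327 differed by more than 4-fold (12.3%), and 0 were called. The median SE of these classes was 0.23, 0.59 and 1.14. All 4 gonadal libraries lay above all 4 subcutaneous ones in 2.22%, 1.73% and 1.58% of the classes' genes, and below them in 1.43%, 2.16% and 1.43%. DESeq2 called 21 higher and 31 lower, 10 higher and 61 lower, and 11 higher and 18 lower in those classes.

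**Figure D1:**
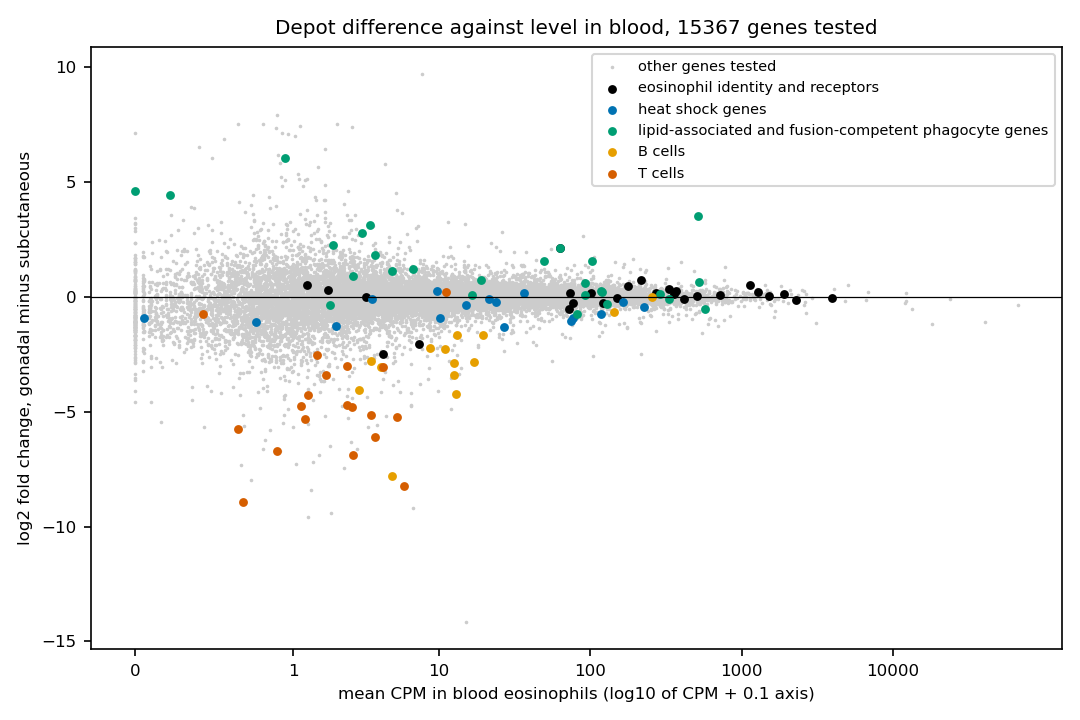
Log2 fold change between the depots (vertical axis, gonadal minus subcutaneous) against the mean CPM in 4 blood libraries (horizontal axis, log scale) for 15367 genes. The point cloud widens to the left, and most T cell genes lie far below 0. Eosinophil identity genes have a median of 0.10 and run from -2.49 to 2.13.

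No gene of the eosinophil lists passed the test between the depots. The 4 eosinophil lists held 80 symbols for receptors, granule proteins, lineage transcription factors and tissue activity, of which 76 passed the filter on low counts. None of the 76 was called by edgeR, none had groups that did not overlap (1.94% of all genes tested were apart above and 1.69% below), and their median log2 fold change was 0.04, against -0.01 over all genes tested. DESeq2 called 1 of them, Itgax, which also stands on the list of lipid-laden and fusing phagocyte genes given below.

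Siglecf, the receptor used in the gate, measured 307, 342, 189 and 524 CPM in gonadal fat (mice 2846, 2807, 2683 and 2668) and 149, 377, 235 and 467 CPM in subcutaneous fat (mice 2846, 2807, 2771 and 2668). The mouse 2668 libraries were the highest of both depots and the groups overlapped. In the fit this was a log2 fold change of 0.15 with a 95% interval of -0.60 to 0.90. Ccr3, the eotaxin receptor, measured 724, 906, 379 and 890 CPM in gonadal and 376, 1160, 532 and 749 CPM in subcutaneous fat (same order of mice, as throughout). Its value in the fit was 0.04, interval -0.68 to 0.76. Il5ra, the interleukin 5 receptor subunit, measured 104, 121, 48.6 and 131 CPM against 73.4, 170, 93.8 and 144 CPM, with a log2 fold change of -0.26 and an interval of -0.91 to 0.39. The receptor genes were thus lowest in the gonadal library of mouse 2683 and the subcutaneous library of mouse 2846. Summed over the eosinophil identity list, those 2 libraries had 7706 and 5868 CPM, and the other 6 fat libraries had 8497 to 14410 CPM. Intervals for Ptprc (-0.58 to 0.47), Itgam (-0.44 to 0.64), Adgre1 (-0.61 to 0.80) and Csf2rb (-0.69 to 0.92) also held 0. Ptprc encodes CD45, Itgam encodes CD11b, Adgre1 encodes F4/80 and Csf2rb the shared beta chain of the interleukin 5 receptor.

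The granule proteins Prg2 and Epx were at under 10 CPM in both depots and in blood. Prg2, the major basic protein gene, measured 0.35 to 1.44 CPM in gonadal and 0 to 3.02 CPM in subcutaneous fat. Epx, eosinophil peroxidase, measured 1.73 to 5.70 and 0 to 7.68 CPM. The ribonuclease gene Ear2 measured 42.4, 22.6, 63.3 and 16.3 CPM in gonadal and 44.0, 11.96, 5.76 and 9.57 CPM in subcutaneous fat, where the library of mouse 2846 stood above the other 3. Ear2 had a log2 fold change of 1.09 (SE 0.59, adjusted p = 0.691). Against blood, Ear2 fell by 2.68 on the log2 scale in gonadal fat (adjusted p = 0.00823) and fell by 3.77 in subcutaneous fat (adjusted p = 0.0019). The granule list as a whole had 6 of 11 values above 0 (median 0.14) and overlapping sums, at 992 to 4269 CPM in gonadal and 741 to 1700 CPM in subcutaneous fat, beside 904 to 1539 CPM in blood. Its most abundant gene in fat was Lyz2, a lysozyme gene that macrophages also express, at 466 to 3827 and 221 to 1325 CPM. Reads of the near-identical Ear genes can be divided between copies, so the level of a single copy is uncertain. On the per-length scale of the deposited TPM, Adgre1 averaged 202 and Ptprc 199 TPM in gonadal fat, above Ccr3 (78.9 TPM), Siglecf (53.2 TPM), Il5ra (11.6 TPM) and Epx (0.94 TPM).

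Among genes that blood eosinophils hold at 10 CPM or more, Adamdec1 and Vav3 had the smallest p between the depots, and neither passed the adjusted threshold. These and the other genes in this and the next paragraph were picked for their small p after the values were seen, so the values describe them and do not test them. Adamdec1 (chromosome 14, 68563380 to 68582095, minus strand of GRCm38), a secreted metalloprotease of the ADAM family, measured 21.4, 16.7, 10.9 and 9.93 CPM in gonadal and 41.0, 100, 135 and 54.0 CPM in subcutaneous fat. All gonadal values lay below all subcutaneous ones, and blood stood above both at 167 to 260 CPM. The log2 fold change was -2.49 (SE 0.37, adjusted p = 0.102), and DESeq2 gave an adjusted p of 8.95e-09. Leaving out the subcutaneous library of mouse 2846 gave 0.027 by edgeR, and leaving out that of mouse 2668 gave 0.0423. No other fit that left out 1 library brought Adamdec1 under 0.05. Against blood, Adamdec1 fell by 3.87 on the log2 scale in gonadal fat (adjusted p = 3.96e-05) and fell by 1.38 in subcutaneous fat (adjusted p = 0.0137).

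Vav3 (chromosome 3, 109340653 to 109685698, plus strand), a guanine nucleotide exchange factor, measured 87.3, 64.0, 92.7 and 77.8 CPM in gonadal fat. In subcutaneous fat it measured 44.3, 42.9, 43.9 and 43.0 CPM, a spread under 2 CPM, and the groups were apart. The log2 fold change was 0.89 (SE 0.14, adjusted p = 0.102). The glycolytic gene Eno1 measured 123 to 204 CPM in gonadal, 61.1 to 94.8 CPM in subcutaneous fat and 122 to 150 CPM in blood (log2 fold change 0.93, adjusted p = 0.171). Eno1 shares sequence with the gene Eno1b, so its reads can be divided between them. Hist1h1d, a linker histone gene, measured 129 to 252 CPM in gonadal and 52.7 to 97.5 CPM in subcutaneous fat (log2 fold change 1.18, adjusted p = 0.239). Ets1, a transcription factor known from lymphocytes, measured 18.7, 31.1, 12.8 and 24.98 CPM in gonadal and 116, 59.98, 90.8 and 37.7 CPM in subcutaneous fat. Its groups were apart, with a log2 fold change of -1.79 (SE 0.37, adjusted p = 0.182), and blood held 53.6 to 111 CPM.

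Predicted genes, genes of the mitochondrial genome and ribosomal protein genes were left out of the next count. The 24 other protein-coding genes with the smallest p and at least 10 CPM in a depot held 16 lower and 8 higher in gonadal fat. Groups were apart in 23 of them, and Clec4b1 overlapped. The adjusted p of these genes reached 0.239 at most. The noncoding genes Gm2682 (log2 fold change -6.64, adjusted p = 0.11) and AC121821.1 (log2 fold change 2.08, adjusted p = 0.153) had p in that range and groups apart. Of the 16 lower genes, 5 stand on the T cell list (Lef1, Bcl11b, Lck, Cd3g and Tcf7) and 2 on the heat shock list (Dnajb1 and Hsp90aa1). Gimap4, Gimap8, Ms4a4b, Txk and Ptprcap, also among the 16, are known from lymphocytes and were not on a list. Gimap8 measured 0.475 to 1.83 CPM in gonadal and 4.05 to 25.1 CPM in subcutaneous fat, and Ms4a4b measured 0 to 0.814 and 2.28 to 23.9 CPM. Of the 8 higher genes, Bcl2a1d, a survival gene of the BCL2 family whose reads can be divided among close copies, measured 28.5, 21.9, 28.0 and 14.0 CPM in gonadal and 5.99, 3.88, 6.44 and 8.46 CPM in subcutaneous fat (log2 fold change 1.90, adjusted p = 0.15).

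**Figure D2:**
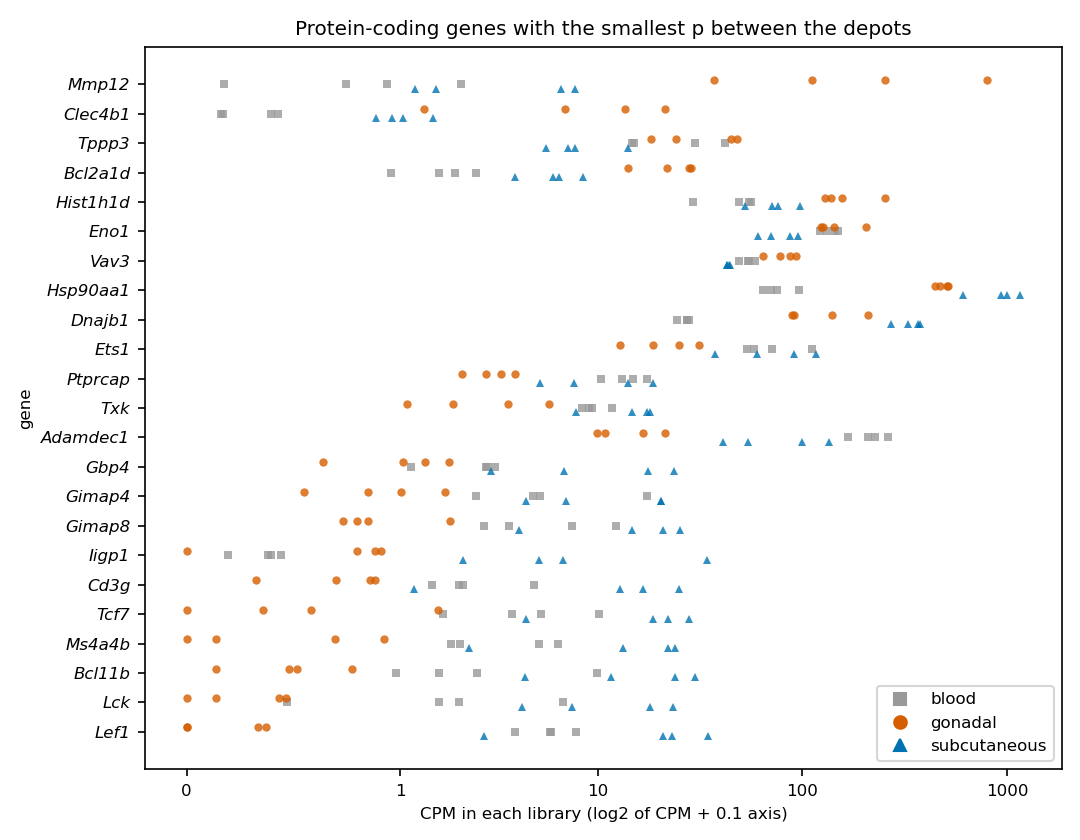
CPM in each library (horizontal axis, log scale) of 23 of the 24 protein-coding genes with the smallest p between the depots, ordered by fold change. Orange circles are 4 gonadal, blue triangles 4 subcutaneous and grey squares 4 blood libraries; circles and triangles mix in Clec4b1 and in no other gene drawn, and blood lies between them in many of the lower genes.

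The called gene, Lef1, is a T cell marker, and most other T cell markers had values on the same side. Of 19 on the list, 18 had lower fitted values in gonadal fat, 1 was called lower by edgeR and 15 by DESeq2 (0.00651% and 0.716% of all genes tested). In 15 of the 19 all gonadal libraries lay below all subcutaneous ones, where 1.69% of all genes tested did so. Their median log2 fold change was -4.82. The list was chosen with earlier results of these data known, so its count is a description.

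Lef1 (chromosome 3, 131110471 to 131224356, plus strand), a transcription factor of the Wnt pathway and of T cell development, was the called gene. It measured 0, 0.144, 0 and 0.122 CPM in gonadal fat and 34.7, 20.8, 23.0 and 2.72 CPM in subcutaneous fat. Blood held 3.88 to 7.83 CPM, above every gonadal library. The reads summed to 4 in gonadal and 788 in subcutaneous fat, a ratio of 304 after scaling with a 95% counting interval of 118 to 1118. In the fit Lef1 fell by 8.23 on the log2 scale (SE 0.96, adjusted p = 0.0185). The adjusted p was 0.131 in a fit with the mouse as a block and 0.19 in a fit of the 8 fat libraries alone. Leaving out 1 library gave an adjusted p of 0.000439 to 0.118. Above 0.05 were the fits that lacked 1 of these: blood of mouse 2771 (0.0552), gonadal fat of mouse 2846 (0.118), 2683 (0.0809) or 2668 (0.103), or subcutaneous fat of mouse 2807 (0.0732) or 2771 (0.0661).

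Cd3g and Lck, of the T cell receptor complex and its signalling, had the same order. Cd3g, a subunit of CD3, measured 0.679, 0.432, 0.118 and 0.731 CPM in gonadal and 24.9, 12.8, 16.6 and 1.18 CPM in subcutaneous fat (log2 fold change -4.82, SE 0.86, adjusted p = 0.132). Lck, the kinase bound to CD4 and CD8, measured 0.204, 0, 0.0393 and 0.183 CPM against 17.97, 7.45, 23.3 and 4.19 CPM (log2 fold change -6.89, SE 1.14, adjusted p = 0.11). The subcutaneous library of mouse 2668 was the lowest of its depot in both genes and still above every gonadal library. Bcl11b, a transcription factor that commits cells to the T lineage, measured at most 0.543 CPM in gonadal and 4.34 to 30.0 CPM in subcutaneous fat. Without that library of mouse 2668, Cd3g and Bcl11b passed the threshold (adjusted p = 0.0212 and 0.0478). They passed in no other fit that left out 1 library.

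Coreceptors of both T cell classes were on the lower side. Cd4 measured 0.136, 4.32, 0.943 and 0.305 CPM in gonadal and 17.7, 33.6, 137 and 11.6 CPM in subcutaneous fat (log2 fold change -5.16, adjusted p = 0.331). The subcutaneous library of mouse 2771 was the highest. Cd8a measured 0, 0, 0 and 0.548 CPM in gonadal and 14.97, 2.85, 12.2 and 1.54 CPM in subcutaneous fat. Cd8b1 had no read in the 4 gonadal libraries and 133 reads in the subcutaneous ones. With the gonadal group set to a floor of 3 counts, the pooled reads were at least 68.4-fold higher in subcutaneous fat. That bound leaves out the spread between mice. In the fit Cd8b1 had a log2 fold change of -8.935 (SE 1.944, adjusted p = 0.285). Cd2 was the exception, at 23.9, 2.02, 27.8 and 0.487 CPM in gonadal and 15.3, 8.95, 19.3 and 3.24 CPM in subcutaneous fat (log2 fold change 0.22, SE 1.18). Lat, Trbc2 and Icos overlapped between the depots.

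Summed over the list, T cell genes gave 31.9, 17.4, 34.3 and 7.98 CPM in gonadal and 280, 178, 386 and 49.96 CPM in subcutaneous fat, and 22.8 to 112 CPM in blood. Within each mouse that gave both depots, 18 of 19 genes were lower in the gonadal library. The median log2 ratio was -3.81 in mouse 2846, -3.16 in mouse 2807 and -1.31 in mouse 2668. The list's sum was at most 386 CPM in any library, beside 5868 CPM or more for the eosinophil identity list. In these bulk libraries fewer cells of a type and less RNA per cell cannot be told apart.

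B cell genes leaned the same way in smaller amounts. All 14 markers that passed the filter had fitted values below 0 (median -2.81), 0 were called by edgeR and 5 by DESeq2, and groups were apart in 5, among them Blk, Pax5, Cd79a and Cr2. Over all genes tested DESeq2 called 0.716% lower, and 1.69% were apart in that direction. Pax5, a transcription factor of B cell identity, measured 0, 0.288, 0.236 and 0.609 CPM in gonadal and 4.19, 1.90, 14.0 and 1.69 CPM in subcutaneous fat, with 1.78 to 32.8 CPM in blood (log2 fold change -4.24, SE 1.13, adjusted p = 0.393). Gonadal values were thus low in all 4 mice. The list's summed CPM did not separate the depots, at 196 to 529 in gonadal and 342 to 527 in subcutaneous fat. Bank1 alone gave 126 to 493 and 165 to 423 CPM.

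**Figure D3:**
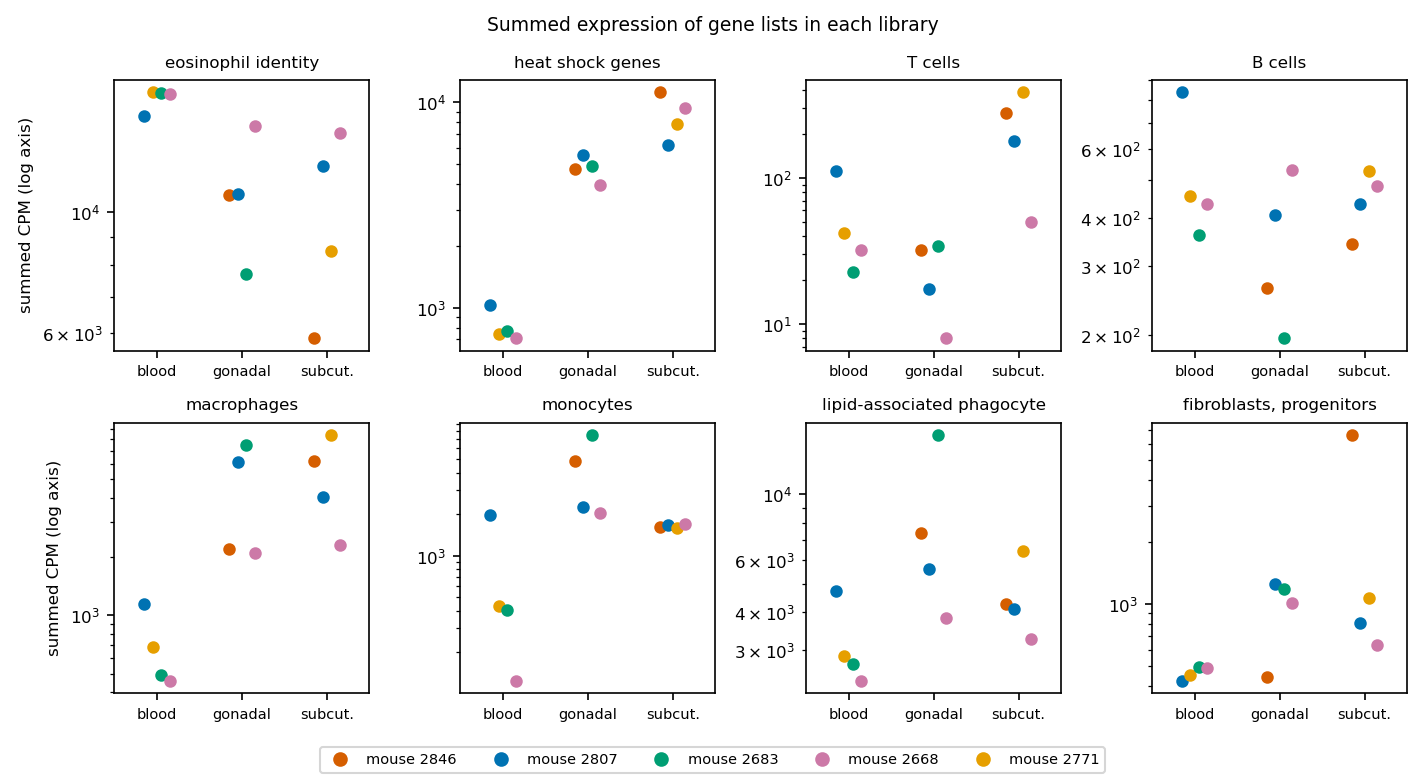
Summed CPM (log axis) of 8 gene lists in each of 12 libraries, coloured by mouse, in blood, gonadal and subcutaneous fat. The T cell panel has all 4 gonadal points (7.98 to 34.3) under all 4 subcutaneous points (49.96 to 386), the heat shock panel has the same order, and the fibroblast panel has 1 high point, the subcutaneous library of mouse 2846.

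Macrophage genes were present in both depots and did not separate them. All 21 markers passed the filter, 0 were called by edgeR or DESeq2, 0 had groups apart, and the median log2 fold change was -0.30. The list summed to 2198, 6130, 7474 and 2081 CPM in gonadal and 6217, 4023, 8424 and 2285 CPM in subcutaneous fat, above the 458 to 1145 CPM of blood. Both libraries of mouse 2668 were the lowest of their depot. Apoe measured 429 to 2127 CPM in gonadal and 502 to 2478 CPM in subcutaneous fat. Fibroblast and progenitor genes summed to 443 to 1243 CPM in gonadal fat and to 632 to 1065 CPM in 3 subcutaneous libraries, with 6602 CPM in the subcutaneous library of mouse 2846. In that library Col3a1, a fibrillar collagen gene, measured 1800 CPM, against 35.4 to 225 CPM in the other 7 fat libraries. The smooth muscle myosin gene Myh11 measured 3.26, 349, 5.03 and 46.7 CPM in gonadal and 499, 87.1, 0.0619 and 0.515 CPM in subcutaneous fat, with no order by depot. Over the 20 lists of other cells, 251 symbols matched a gene and 168 passed the filter. Of these, 0 were called higher and 1 lower by edgeR, and 0 higher and 21 lower by DESeq2, which called 0.716% of all genes lower. The 21 were 15 T cell genes, 5 B cell genes and Cxcr2 of the neutrophil list. The stromal genes that mark the depots gave little signal: 1 of 17 passed the filter, Hoxc8, at 0.339 to 2.92 CPM in gonadal and 0.0792 to 13.5 CPM in subcutaneous fat.

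Genes known from lipid-laden and fusing phagocytes mostly had higher values in gonadal libraries, with wide spread. Of 28 symbols 27 passed the filter, 22 had fitted values above 0, 0 were called by edgeR and 4 were called higher by DESeq2 (0.273% of all genes tested). Groups were apart in 4 (Mmp12, Dcstamp, Ocstamp and Atp6v0d2), where 1.94% of all genes tested were apart in that direction. The median log2 fold change was 0.92, and it was 0.24 without the gonadal library of mouse 2683.

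Mmp12 (chromosome 9, 7344381 to 7369499, plus strand), macrophage elastase, measured 254, 112, 796 and 37.2 CPM in gonadal and 1.20, 6.58, 7.68 and 1.54 CPM in subcutaneous fat. Every gonadal library was above every subcutaneous one, and blood held at most 2.08 CPM. The fit gave a log2 fold change of 6.05 (SE 1.11, adjusted p = 0.153), and DESeq2 gave an adjusted p of 5.37e-06. Without the gonadal library of mouse 2683 the log2 fold change was 4.90 (adjusted p = 0.448). Within mice, the log2 ratio was 7.23, 3.98 and 4.21 in mice 2846, 2807 and 2668. Dcstamp, needed for fusion of osteoclasts and giant cells, measured 72.5, 16.1, 108 and 15.2 CPM in gonadal and 5.99, 0.0792, 2.35 and 1.54 CPM in subcutaneous fat (log2 fold change 4.61, adjusted p = 0.393).

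Fn1, the fibronectin gene, measured 3551, 906, 6195 and 626 CPM in gonadal and 655, 53.3, 223 and 73.9 CPM in subcutaneous fat. The groups overlapped only through the highest subcutaneous library, that of mouse 2846, and the log2 fold change was 3.49 (SE 1.21, adjusted p = 0.498). Blood held 52.8 to 1576 CPM of it. Itgax, the CD11c integrin gene, measured 168, 57.9, 266 and 57.6 CPM in gonadal and 26.9, 21.6, 61.1 and 15.01 CPM in subcutaneous fat (log2 fold change 2.13, SE 0.55, adjusted p = 0.388, by DESeq2 0.0054). Of 3 genes of lipid uptake and storage, Plin2 and Lpl had groups apart and Cd36 did not. Plin2, which coats lipid droplets, measured 179, 153, 656 and 110 CPM in gonadal and 76.4, 66.1, 102 and 43.3 CPM in subcutaneous fat, with groups apart (log2 fold change 1.93, adjusted p = 0.393). Lpl, lipoprotein lipase, measured 662, 187, 1298 and 128 CPM against 122, 45.7, 115 and 37.5 CPM, also apart (log2 fold change 2.83, adjusted p = 0.531). The scavenger receptor gene Cd36 overlapped, at 146 to 1202 and 86.2 to 270 CPM. In the fatty acid list 24 of 34 genes had values above 0 (median 0.35), and groups were apart in 4 higher genes and 1 lower gene, where 1.94% and 1.69% of all genes tested were.

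The gonadal libraries of mice 2846 and 2683 were the highest in most of these genes, and the sum of MHC class II genes was highest there too. These genes summed to 6084, 2731, 10730 and 1529 CPM in gonadal and 2179, 1506, 3866 and 1224 CPM in subcutaneous fat. The monocyte list summed to 4845, 2265, 7487 and 2055 CPM in gonadal and 1618, 1680, 1579 and 1689 CPM in subcutaneous fat, with Fn1 and Nr4a1 as its most abundant genes. Of the 12 monocyte genes 5 had fitted values above 0 and 7 below (median -0.17), with 0 called and 0 apart, and Fn1 alone had the values given above. The complement gene C1qa did not follow them, at 51.9, 181, 203 and 62.1 CPM in gonadal and 166, 153, 303 and 84.2 CPM in subcutaneous fat. The part of other phagocytes in these values was not tested.

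**Figure D4:**
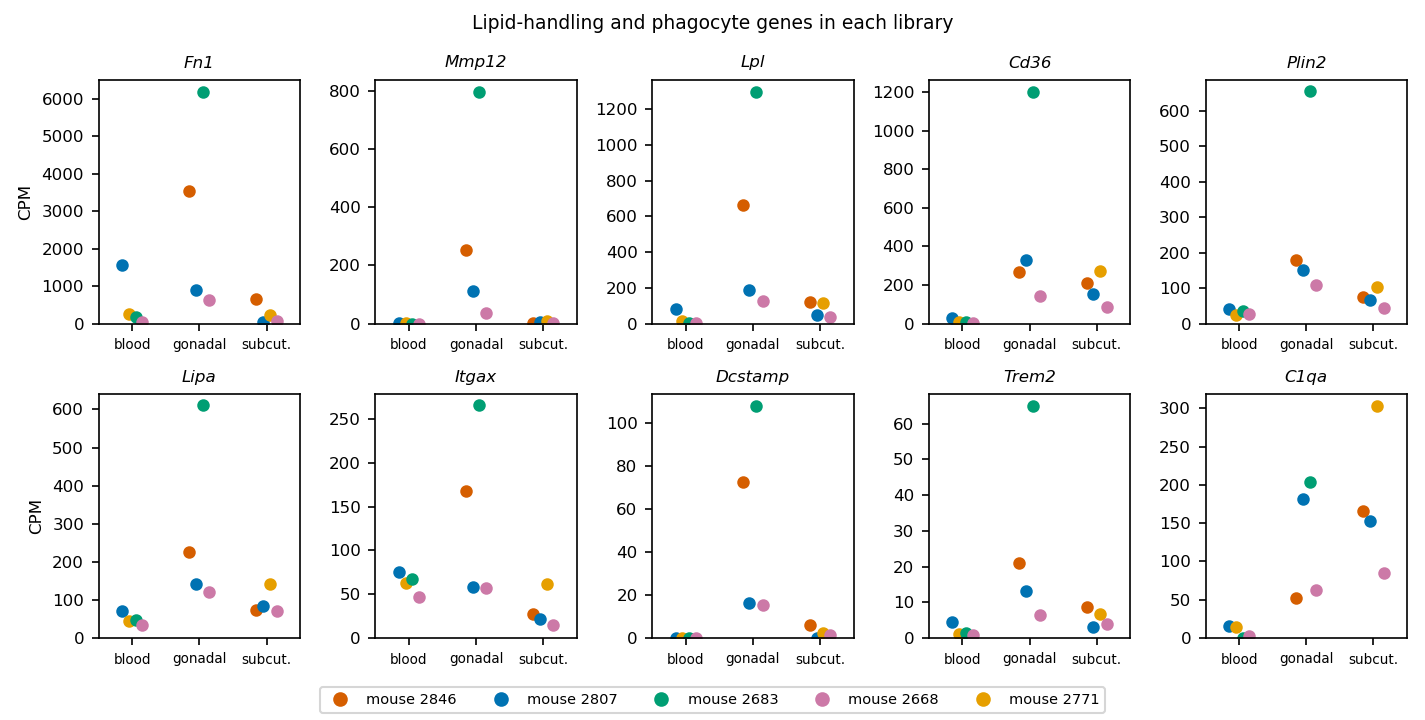
CPM (linear axis from 0) of 10 lipid-handling and phagocyte genes in each of 12 libraries, coloured by mouse. The gonadal library of mouse 2683 is the highest point in 9 panels, Mmp12 and Plin2 have all gonadal points above all subcutaneous ones, and C1qa has its highest point in subcutaneous fat.

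Heat shock genes mostly had higher values in subcutaneous than in gonadal libraries, and most rose in both depots against blood. All 16 members passed the filter, and 14 had fitted values below 0 (median -0.58). None was called by edgeR and 3 were called lower by DESeq2 (Dnajb1, Hsp90aa1 and Hspa8), the same 3 whose groups were apart. Over all genes tested, DESeq2 called 0.716% lower and 1.69% were apart in that direction. Summed CPM was 4729, 5545, 4873 and 3935 in gonadal and 11180, 6169, 7870 and 9422 in subcutaneous fat, and 709 to 1028 in blood. The sums of the depots did not overlap. Against blood, 14 of 16 were called higher in each depot, where 15.4% of all genes tested were. Immediate early genes also rose, with 22 of 28 called higher in gonadal and 24 in subcutaneous fat.

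Most of these genes encode chaperones and cochaperones of protein folding, and heat shock factors are known to bind inverted repeats of GAA. Upstream sequence is shown because 14 of the 16 members had values below 0. RefSeq promoter windows of the GRCm38.p6 assembly, 250 bases before each start, were searched on both strands for GAANNTTC and TTCNNGAA, each of which is its own reverse complement. Windows were found for 12 of the 16 genes. Of these 12, 8 had a match in at least 1 window, where 14.5% of 27025 genes did (12.8% of 32851 windows). Among the genes with groups apart, Dnajb1 had no match, and Hsp90aa1 and Hspa8 had no window. An Hspd1 window overlaps the Hspe1 window on the other strand, so both genes count the same matches. A link of the motif to the depot difference was not tested. Matches are in capitals, and overlapping matches are joined. The Hspa1a window is chr17:34972157-34972406 (minus strand), and the Hspa1b window is the same as it at 247 of 250 bases. The Hspe1 window is chr1:55087898-55088147 (plus strand), with 3 overlapping matches. The Dnajb1 window is chr8:83607925-83608174 (plus strand), with none.
Hspa1a: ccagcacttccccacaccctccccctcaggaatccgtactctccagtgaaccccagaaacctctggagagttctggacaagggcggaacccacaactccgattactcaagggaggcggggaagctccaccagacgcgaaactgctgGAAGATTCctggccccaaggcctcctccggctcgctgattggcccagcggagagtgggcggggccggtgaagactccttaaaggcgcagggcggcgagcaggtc
Hspe1: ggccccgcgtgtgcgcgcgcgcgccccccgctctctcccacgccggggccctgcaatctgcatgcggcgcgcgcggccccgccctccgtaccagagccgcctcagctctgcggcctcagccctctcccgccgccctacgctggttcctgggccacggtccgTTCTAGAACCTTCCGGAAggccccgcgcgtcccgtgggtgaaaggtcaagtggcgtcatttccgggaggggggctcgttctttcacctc
Dnajb1: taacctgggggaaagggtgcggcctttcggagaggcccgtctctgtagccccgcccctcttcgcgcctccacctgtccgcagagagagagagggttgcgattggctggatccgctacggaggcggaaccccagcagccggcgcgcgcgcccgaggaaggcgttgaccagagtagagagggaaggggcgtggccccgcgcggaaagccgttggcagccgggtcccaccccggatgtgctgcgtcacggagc

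These 3 genes had unequal depot differences. Hspa1a, an inducible HSP70, measured 400, 533, 459 and 166 CPM in gonadal and 1515, 397, 858 and 583 CPM in subcutaneous fat (log2 fold change -1.10, SE 0.53, adjusted p = 0.631), and under 1 CPM in blood. The groups overlapped through mouse 2807, whose subcutaneous value was the lowest of that depot. Reads of Hspa1a and Hspa1b can be divided between these copies. Hspe1, a mitochondrial cochaperonin, measured 10.7 to 27.0 CPM in gonadal and 7.61 to 25.8 CPM in subcutaneous fat (log2 fold change -0.08, SE 0.47).

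Dnajb1 (chromosome 8, 83608193 to 83612653, plus strand), an HSP40 cochaperone, measured 140, 210, 91.0 and 89.1 CPM in gonadal and 365, 269, 326 and 375 CPM in subcutaneous fat. The groups were apart, and blood held 24.5 to 28.0 CPM. The fit gave -1.33 on the log2 scale (SE 0.24, adjusted p = 0.144), and without the gonadal library of mouse 2807 it was -1.65 (adjusted p = 0.0365). No fit that lacked another gonadal library brought Dnajb1 under 0.05. Hsp90aa1, inducible HSP90, measured 505, 515, 443 and 470 CPM in gonadal and 1000, 610, 929 and 1155 CPM in subcutaneous fat (log2 fold change -0.93, SE 0.20, adjusted p = 0.191). The subcutaneous library of mouse 2807 was the lowest of its depot in both genes. Hspa8, the constitutive HSC70, measured 823, 1109, 919 and 838 CPM against 1672, 1297, 1316 and 1828 CPM (log2 fold change -0.73, adjusted p = 0.393). Groups were apart in 7 heat shock genes once the subcutaneous library of mouse 2807 was left out. Fewer libraries overlap less, so this count cannot be set against the share with all libraries. Over all genes tested, 259 were apart in that direction with all libraries and 270 to 593 without 1 library. Within mice, 12, 10 and 14 of 16 genes were lower in the gonadal library of mice 2846, 2807 and 2668. The median log2 ratios were -0.58, -0.15 and -0.88. The part of tissue handling in these values was not tested.

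**Figure D5:**
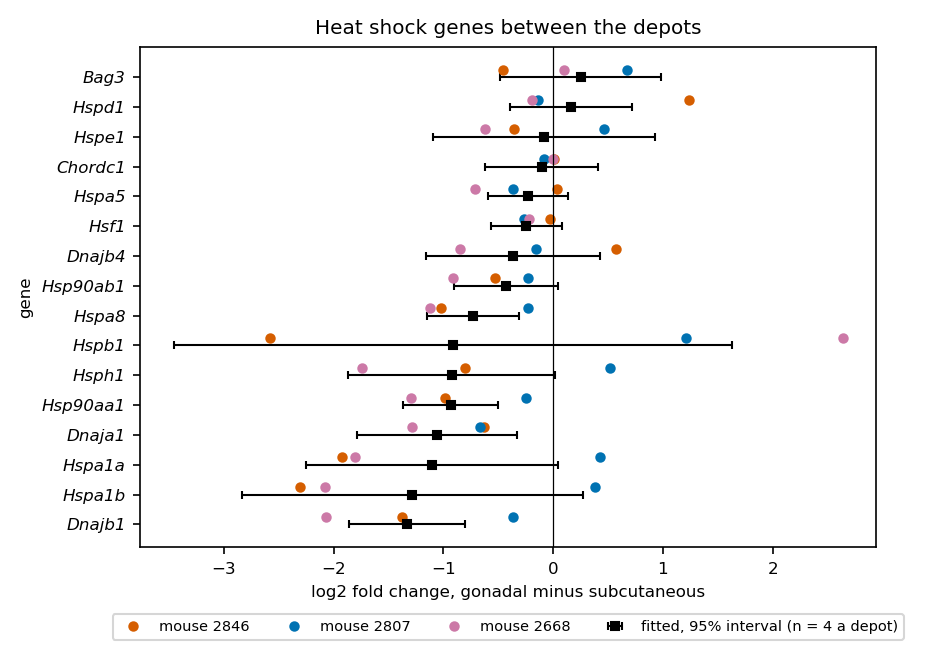
Log2 fold change (horizontal axis, gonadal minus subcutaneous) of 16 heat shock genes, as fitted values with 95% intervals (black squares, 4 libraries a depot) and as ratios within each of 3 mice (coloured circles). Values of 14 genes lie left of 0, and the ratios of mouse 2807 lie nearest to 0 or above it in most of the genes with the most negative fitted values.

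Other gene groups gave no called gene between the depots by edgeR. Immediate early genes had 23 of 28 values below 0 (median -0.40), with groups apart in 1, Jund, at 379 to 585 CPM in gonadal and 590 to 932 CPM in subcutaneous fat. Their summed CPM overlapped, at 16790 to 23200 and 18740 to 33320. Glucocorticoid targets had 15 of 16 values below 0 (median -0.35) and groups apart in 2, where 1.69% of all genes tested were apart in that direction. One of them, Nr3c1, the receptor itself, measured 166, 207, 156 and 199 CPM in gonadal and 211, 224, 214 and 224 CPM in subcutaneous fat. The other, Il1r2, averaged 2.34 CPM in gonadal and 9.27 CPM in subcutaneous fat (log2 fold change -1.97, adjusted p = 0.239, by DESeq2 0.00231). Within mice 2846, 2807 and 2668, 9, 10 and 11 of the 16 glucocorticoid targets were lower in the gonadal library. Genes of the mitochondrial genome had 12 of 12 values below 0 (median -0.89). Within mice 2846, 2807 and 2668, 12, 1 and 12 of these 12 genes were lower in the gonadal library. Their sum was 31390 CPM in the subcutaneous library of mouse 2846, against 4443 to 8600 CPM in the other 7 fat libraries. Cell cycle genes had 18 of 24 values above 0 (median 0.55), and interferon response genes 23 of 34 below 0 (median -0.20). NF-kB response genes (median -0.21), cytokines and chemokines (-0.35), and trafficking receptors (-0.03) had medians below 0. Hypoxia and glycolysis (0.08), cholesterol (0.26), remodelling (0.05) and survival genes (0.10) had medians above 0.

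In the type 2 list Retnla, a resistin-like gene of alternatively activated macrophages, had no read in the 4 gonadal libraries. It measured 265, 71.3, 227 and 0 CPM in subcutaneous fat, so the library of mouse 2668 was at 0 in both depots. Its adjusted p was 0.422 by edgeR and 0.000249 by DESeq2. Il1rn, the interleukin 1 receptor antagonist, measured 172, 174, 162 and 249 CPM in gonadal and 59.0, 152, 139 and 100 CPM in subcutaneous fat, with groups apart (log2 fold change 0.74, adjusted p = 0.498). Of the 87 genes named by rule or added and tested, 27 were called higher and 27 lower in gonadal fat than in blood. In subcutaneous fat 24 were called higher and 13 lower than in blood. Over all genes tested the shares were 15.4% higher and 11.6% lower in gonadal, and 15.4% and 11.4% in subcutaneous fat. Some of the 87 were picked for a small p between the depots, so these counts do not compare the depots.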

How the data were processed

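The 12 libraries were made from total RNA with a stranded SMARTer kit for very small inputs, per the labels. The submitters' processing notes name mm10, Salmon 1.6.0, Trim Galore 0.6.4 and DESeq2 1.30.1. The deposited files give estimated counts and TPM per transcript, per the file headers. The annotation and the use of strand are not given in the sources used here. Reads of overlapping antisense genes may thus be mixed. Of 140992 transcripts, 139791 matched GENCODE M21 (GRCm38). The other 1201 held 0.351% to 0.538% of reads and were left out. Estimated counts were summed over 54115 genes and rounded.

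edgeR 4.0.16 (R 4.3.3; TMM, filterByExpr, robust quasi-likelihood fit, group only, Benjamini-Hochberg over 15367 genes) gave the tests, and the common biological coefficient of variation was 0.545. DESeq2 1.42.0 and limma 3.58.1 (voom) were alternatives. The edgeR and DESeq2 fits were tested on simulated data. Depth was 4379954 to 23734940 reads. Counting intervals (95%) and floors cover counting error only, because PCR reads without molecular identifiers are not independent molecules. Mice 2846, 2807 and 2668 gave both depots, so these libraries are paired by animal. Their deviations from depot means correlated at -0.0891, 0.0452 and 0.491. Samples of a depot come from different mice.

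Members and the 41 gene lists were chosen with earlier results of these data known, and 4 list symbols did not match a gene. Named genes were called genes of at least 10 CPM in a depot (up to 12 a direction), the member with the smallest p of each eosinophil and functional list where none was called, for each other-cell list its 2 highest members in fat, and a panel of 11 eosinophil genes, 70 in all. The 24 protein-coding genes with the smallest p (predicted, mitochondrial genome and ribosomal protein genes left out) were added after their values were seen, which gave 19 more. List members named beside these were also chosen after their values were seen. Log2 ratios within mice used a pseudocount of 0.5 CPM. The labels give no batch or date of sequencing. Some genes that enter the counts are not reported here by name.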

Additional observations from a re-analysis of the deposited data

Results flagged for a closer look

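In 29 of 263 sets of 4 libraries (11%) the highest or lowest library stood apart from the other 3. Dixon's test at the 95% level was used, and that level holds for independent, normal values. The values were not logged and some sets share genes, so the 11% cannot be set against a rate by chance. Of the 29, 14 were in the subcutaneous library of mouse 2846. There it was high for Ear2 (44.0 CPM), mt-Nd6 (1106 CPM), Sdc1 (7.79 CPM), Fabp4 (101 CPM), Gsn (1563 CPM), Col3a1 (1800 CPM), Hoxc8 (13.5 CPM), Ptprb (93.1 CPM) and Krt10 (1.497 CPM), and low for Irf7 (14.7 CPM). Summed CPM was high there for mitochondrial genome proteins (31390), adipocytes (180.9) and fibroblasts and progenitors (6602), as was the share of mitochondrial ribosomal RNA (28.1%).

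In the subcutaneous library of mouse 2771, H2-DMb1 (22.6 CPM), Sfrp2 (14.6 CPM), Iigp1 (34.2 CPM) and the summed granule protein genes (1700 CPM) were high. In that of mouse 2807, Gata2 (60.3 CPM), Krt18 (12.9 CPM) and the summed mesothelial genes (15.1 CPM) were high. In gonadal fat, Plin2 was high (656 CPM), and Epx (1.73 CPM), the summed lineage transcription factors (1715 CPM) and the summed glucocorticoid targets (2843 CPM) were low, in mouse 2683. Il1rn (249 CPM) and Gimap8 (1.83 CPM) were high and Krt10 (0 CPM) low in mouse 2668. Myh11 (349 CPM) was high in mouse 2807.

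Lef1 differed between the depots as a difference of their changes from blood: -6.45 on the log2 scale in gonadal and 1.79 in subcutaneous fat, with an adjusted p of 0.0185 for the difference (edgeR, 4 libraries a group, lower in 4 of 4 gonadal libraries). Blood cancels in this difference, so it is the same depot test as given above and not a further result.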

How the results depend on the processing

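Lef1 was called in 6 of the 12 fits that left out 1 library, with DESeq2 and with each other scaling in edgeR. Genes called higher and lower were 0 and 1, and 0 and 0 with the 8 fat libraries alone, with limma-voom, and with both the shallow subcutaneous library (mouse 2846) and the gonadal library of mouse 2683 left out. The other-cell lists and the genes of 1 to 10 CPM in blood then also had 0 calls in place of 1. With mouse as a replicate block, in 12 or 8 libraries, all these counts were 0, and Lef1 had an adjusted p of 0.131 or 0.608. The pairing changed no other depot call. DESeq2 called 42 higher and 110 lower, with 1 on the eosinophil lists, 21 on the other-cell lists, and 52, 71 and 29 in the blood classes from high to low. Leaving out 1 library gave 0 to 1 higher, 0 to 7 lower, 0 to 3 on the other-cell lists, 0 to 2 of at least 10 CPM and 0 to 6 of 1 to 10 CPM in blood, and 0 on the eosinophil lists. The 7 were without the subcutaneous library of mouse 2668.

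Groups apart were 298 above and 259 below. With 5 CPM required in 4 libraries they were 169 above and 218 below, with 6 T cell genes, because 7 T cell genes were then tested. Without those 2 libraries they were 746 and 792, and without 1 library 295 to 751 and 270 to 593, since fewer libraries overlap less. T cell genes apart were 15 to 17 and heat shock genes 3 to 7. These 4 counts were added after seeing the data. Named genes called against blood were 54 in gonadal and 37 in subcutaneous fat, 34 and 23 against a fold of 1.5, and 40 to 55 and 27 to 42 without 1 library. Some of the named genes were picked for a small p between the depots.

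Of 2072 pairs of a named gene and a setting, 2027 stayed on their side of the threshold. Of the rest, 34 came to pass it (27 with DESeq2) and 11, all Lef1, no longer passed. Apart from DESeq2, 4 came to pass without the subcutaneous library of mouse 2668 and 1 without that of mouse 2846. The other 2 came to pass without the gonadal library of mouse 2807, Dnajb1 as lower and 1 gene as higher in gonadal fat. None of the called values reversed. Among uncalled values, 85 changed sign, in 29 genes. Scalings moved the median of all genes by less than 0.1. The median SE was 1.14 for genes under 1 CPM in blood and 0.23 for those of at least 10 CPM. The part of depth in this was not tested.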
